A study of Mus musculus with 6 samples.

Results

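The serum amyloid A genes Saa1, Saa2, Saa3 and Saa4, the orosomucoid genes Orm1, Orm2 and Orm3, the pentraxin genes Crp and Apcs and the haptoglobin gene Hp were examined in 6 mouse liver libraries. They were found by symbol in the deposited gene table, where all 10 were present among 22274 genes. In 3 samples the livers came from C57 mice infected with Ad-Dyrk1b, an adenovirus for overexpression of the mouse protein kinase Dyrk1b. The other 3 came from C57 mice infected with Ad-EGFP, a control adenovirus. Both groups carried an adenovirus, so the comparison is between 2 infected states, and uninfected liver was not analysed here. The labels give no dose, time after infection, promoter, age or sex. Whether each sample is a mouse of its own is not stated either, and p-values then reflect only the spread between samples, part of which may be technical. The series as a whole concerns hepatic Dyrk1b and systemic glucose.

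All of these genes encode plasma proteins of the acute-phase response, the change in liver secretion that follows infection or injury. Cytokines of the interleukin-6 family act through STAT3, interleukin-1 and tumour necrosis factor act through NF-kB, and both work together with C/EBP factors and glucocorticoids at the promoters of these genes. Saa1 and Saa2 are the major inducible serum amyloids and travel on high-density lipoprotein. Saa4 is the constitutive member of that family, and in mice Saa3 is made in many tissues, with macrophages and adipocytes among its sources. Orosomucoids are lipocalins that carry small lipophilic molecules. C-reactive protein (Crp) and serum amyloid P component (Apcs) are the short pentraxins, of which Apcs is the main acute-phase pentraxin of the mouse. Haptoglobin captures free haemoglobin.

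Total counts per library ranged from 17326516 to 20024888. Dyrk1b stood at 62.2, 101 and 96.5 FPKM (fragments per kilobase of gene, scaled to library size) in Ad-Dyrk1b livers, against 3.81, 4.97 and 4.16 FPKM in Ad-EGFP livers, and the labels were borne out in all 6 libraries. The 10 hepatocyte markers were above 0 in every library, and their sum on the CPM scale (counts scaled to the TMM-adjusted library size, not to gene length) was 67160 to 88180 in Ad-Dyrk1b and 80160 to 86430 in Ad-EGFP livers. A gene was called when its adjusted p in edgeR's quasi-likelihood test was under 0.05, with Benjamini-Hochberg adjustment over 13201 tested genes. Of these, 972 were called higher (7.36%) and 635 lower (4.81%) in Ad-Dyrk1b, together 12.2%, so that 60.5% of the calls were higher. With limma-trend on log2(FPKM + 1) the calls were 566 higher and 712 lower, and 44.3% of them were higher. The median log2 fold change of all tested genes was -0.00498 in edgeR and -0.0636 in limma-trend.

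All 10 genes passed the filter on low counts. Orm2, Orm3 and Crp were called higher, Saa3 and Saa4 were called lower, and Saa1, Saa2, Orm1, Apcs and Hp were not called. That is 5 of 10 genes called, beside 12.2% of all tested genes. In 5 of 10 genes the FPKM values of the groups did not overlap, beside 32.8% of all tested genes. The median log2 fold change over the 10 genes was 0.15, and single values ran from -2.75 for Saa3 to 1.68 for Orm2. The genes were therefore not shifted in 1 direction: the members called higher and the members called lower belong to different families.

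**Figure D1:**
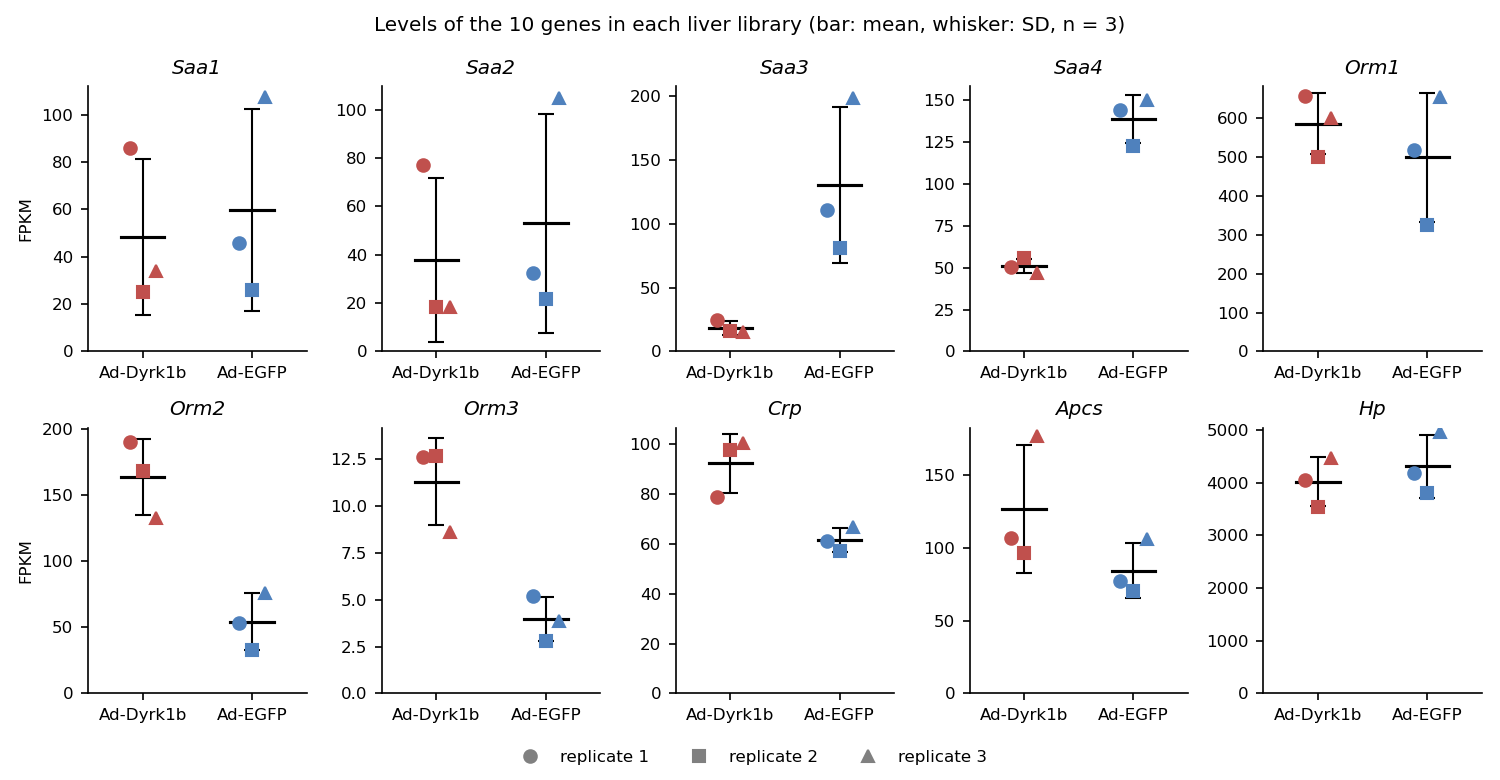
FPKM of each of the 10 genes (vertical axes, starting at 0) in the 3 Ad-Dyrk1b and 3 Ad-EGFP liver libraries, with a bar for the mean and whiskers for the SD. Orm2, Orm3 and Crp lie above the Ad-EGFP libraries and Saa3 and Saa4 below them without overlap, while Saa1 and Saa2 spread over a similar range in both groups.

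The serum amyloid genes lie side by side on mouse chromosome 7 (mm10). In order along the chromosome these are Saa3 (ENSMUSG00000040026, 46711998 to 46715700, minus strand), Saa4 (ENSMUSG00000040017, 46727998 to 46732603, minus strand), Saa1 (ENSMUSG00000074115, 46740497 to 46742980, minus strand) and Saa2 (ENSMUSG00000057465, 46751790 to 46754313, plus strand). Saa1 and Saa2 face away from each other. The stretches before their starts are shown because these neighbours share nearly the same upstream sequence, while those of Saa3 and Saa4, the genes called lower, do not resemble it. They were read from the RefSeq promoter table (GRCm38.p6), on the strand of each gene, 5′ to 3′, and end before the first base that the gene annotation counts as part of the gene. The coordinates are chr7:46742981-46743230 for Saa1, chr7:46751583-46751789 for Saa2, chr7:46715701-46715926 for Saa3 and chr7:46732604-46732853 for Saa4. Capitals mark matches to a C/EBP motif (TTGCNNAA) and, in Saa3, also to an NF-kB motif (GGNNTTTCC), on either strand.
Saa1: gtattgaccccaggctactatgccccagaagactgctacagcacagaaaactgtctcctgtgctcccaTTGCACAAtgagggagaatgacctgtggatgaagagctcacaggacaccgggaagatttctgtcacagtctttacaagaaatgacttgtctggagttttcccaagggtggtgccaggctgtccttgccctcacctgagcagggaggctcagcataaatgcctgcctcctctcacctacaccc
Saa2: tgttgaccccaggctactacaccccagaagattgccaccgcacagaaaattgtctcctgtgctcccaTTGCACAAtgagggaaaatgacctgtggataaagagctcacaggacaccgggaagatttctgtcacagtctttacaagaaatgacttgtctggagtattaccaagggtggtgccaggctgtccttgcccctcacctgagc
Saa3: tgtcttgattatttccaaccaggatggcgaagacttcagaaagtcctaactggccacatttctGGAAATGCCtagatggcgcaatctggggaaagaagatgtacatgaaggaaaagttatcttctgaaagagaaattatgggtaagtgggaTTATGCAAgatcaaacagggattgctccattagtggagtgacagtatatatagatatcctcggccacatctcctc
Saa4: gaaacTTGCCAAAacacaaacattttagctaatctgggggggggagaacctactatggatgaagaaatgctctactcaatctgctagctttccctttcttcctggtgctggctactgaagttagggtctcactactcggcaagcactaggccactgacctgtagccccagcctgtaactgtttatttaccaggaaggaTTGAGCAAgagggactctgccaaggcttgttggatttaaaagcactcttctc

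Over 250 bases before the RefSeq start, Saa1 and Saa2 were identical at 238 of 251 aligned positions (94.8%). Saa3 and Saa4 were identical at 43.8% of theirs, which is near the values of unrelated pairs among these genes, none of which passed 50.2%. The stretches shown for Saa2 and Saa3 end before the RefSeq start, at -44 and -25, since the gene annotation starts these genes earlier. The bases from there to the RefSeq start were aligned but are not shown. Positions are counted from the RefSeq start. In Saa1 the C/EBP match lay at -182 to -175 from that start, and in Saa2 at -183 to -176. Saa3 held a C/EBP match at -99 to -92 and an NF-kB match at -187 to -179. Saa4 held 2 C/EBP matches, at -245 to -238 and at -52 to -45.

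Saa4, the constitutive serum amyloid, was lower in Ad-Dyrk1b livers and was the most even of the family. It had 50.5, 55.7 and 46.8 FPKM in Ad-Dyrk1b livers (replicates 1, 2 and 3), against 144, 123 and 149.99 FPKM in Ad-EGFP livers. The highest Ad-Dyrk1b library was below the lowest Ad-EGFP library by more than the spread within either group. The means were 51.0 ± 4.46 and 139 ± 14.2 FPKM (SD, n = 3 each). In edgeR's test the log2 fold change was -1.36 ± 0.12 (SE), a ratio of 0.390, with an adjusted p of 3.54e-05. Within a group the highest library was 1.19 times the lowest in Ad-Dyrk1b and 1.22 times in Ad-EGFP. The call held when any 1 library was left out, with log2 fold changes of -1.46 to -1.31.

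Saa3 had the largest difference of the 10 genes. Its level was 24.3, 15.6 and 14.97 FPKM in Ad-Dyrk1b livers, from 259, 174 and 149 counts. In Ad-EGFP livers it was 110.3, 81.3 and 198 FPKM, from 1104, 796 and 1916 counts. All Ad-Dyrk1b libraries lay below all Ad-EGFP libraries. The means were 18.3 ± 5.198 and 130.0 ± 61.0 FPKM (SD, n = 3 each). Saa3 fell by 2.75 ± 0.39 (SE) on the log2 scale in edgeR, a ratio of 0.149, with an adjusted p of 0.0106. The call was lost without Ad-Dyrk1b replicate 2, where edgeR gave -2.67 with an adjusted p of 0.0641. Without any other single library it held.

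Macrophages and adipocytes are known sources of mouse Saa3, and their markers are given beside it. In bulk liver, fewer cells of a type and less RNA per cell cannot be told apart. The 10 Kupffer cell and macrophage markers summed to 1103, 906 and 947 CPM in Ad-Dyrk1b livers, against 543, 783 and 1012 CPM in Ad-EGFP livers, so these groups overlapped. None of them was at 0 in any library. Of 9 tested, 1 was called higher and 0 lower, beside 7.36% and 4.81% of all tested genes. The called gene was Cd68, with a log2 fold change of 0.47 ± 0.13 (SE, adjusted p of 0.0304 in edgeR). The scavenger receptor Marco was uneven, with 19.9, 11.4 and 23.3 FPKM in Ad-Dyrk1b livers and 8.80, 12.8 and 103 FPKM in Ad-EGFP livers. Marco was the only tested marker of this list with a log2 fold change below 0 (-1.07 ± 1.09, SE). Cd68 and Marco were named after their values were seen. The 6 adipocyte markers summed to 61.5, 39.5 and 63.2 CPM in Ad-Dyrk1b livers, against 23.1, 32.0 and 46.8 CPM in Ad-EGFP livers. Nearly all of this sum was Fabp4, the only one of them that passed the filter on low counts, at 56.7, 39.5 and 63.1 CPM in Ad-Dyrk1b livers and 22.9, 32.0 and 46.7 CPM in Ad-EGFP livers. Of the other markers, Adipoq and Lep were at 0 in all Ad-EGFP libraries, while Cfd was above 0 in all of them and Plin1 and Retn in 1. Cfd had 2, 1 and 2 counts in Ad-EGFP livers. In Ad-Dyrk1b replicates 1, 2 and 3, Cfd had 61, 0 and 0 counts, and Adipoq and Plin1 each had 11, 0 and 1. Retn had 9, 1 and 0 counts there and Lep 1, 0 and 0. The part of these cell types in the level of Saa3 was not tested.

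Saa1 and Saa2 varied widely within both groups. Saa1 had 86.0, 25.01 and 34.2 FPKM in Ad-Dyrk1b livers, against 45.6, 25.9 and 107 FPKM in Ad-EGFP livers. Saa2 had 77.2, 18.2 and 18.6 FPKM in Ad-Dyrk1b livers, against 32.5, 21.5 and 105 FPKM in Ad-EGFP livers. Both genes were high in the same libraries, Ad-Dyrk1b replicate 1 and Ad-EGFP replicate 3, and the groups overlapped. Within a group the highest library was 3.44 times the lowest in Ad-Dyrk1b and 4.16 times in Ad-EGFP for Saa1, and 4.24 and 4.86 times for Saa2. The log2 fold changes were -0.24 ± 0.75 and -0.42 ± 0.94 (SE), with adjusted p of 0.870 and 0.815 in edgeR. These standard errors leave room for sizeable differences in either direction. With 1 library left out the log2 fold change ran from -0.89 to 0.48 for Saa1 and from -1.40 to 0.54 for Saa2, and it was above 0 for both without Ad-EGFP replicate 3.

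Reads of Saa1 and Saa2 can be hard to assign. Of all 50-base windows of their annotated transcripts, 31.5% in Saa1 and 30.0% in Saa2 also occur in a transcript of another gene, nearly all of them in each other. For 100-base windows the shares were 8.96% and 8.63%. Saa3 shared 4.15% and Saa4 1.27% of their 50-base windows with any other gene, and neither shared a 100-base window. The annotated exons of Saa1 and Saa2 together cover 2478 and 2518 bases, almost the whole span of each gene. Their windows thus include bases that spliced mRNA may lack. The shares in spliced mRNA, which could be higher, were not measured. The length of the reads, not given in the sources used here, would set how many are shared, as would the handling of reads that match several genes. The single values of Saa1 and Saa2 are therefore uncertain, and sums are given beside them.

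The sum of Saa1 and Saa2, which was added after seeing the data, was 99.4, 28.6 and 33.7 CPM in Ad-Dyrk1b livers, against 48.0, 28.1 and 127 CPM in Ad-EGFP livers. It overlapped between the groups, as its parts did. The sum of all 4 serum amyloid genes was 217, 163 and 144 CPM in Ad-Dyrk1b livers, against 409.5, 318 and 535 CPM in Ad-EGFP livers. This sum did not overlap between the groups, and the ratio of its means was 0.415, a log2 ratio of -1.27. With 1 library left out the log2 ratio was -1.46 to -1.06. As FPKM, the sum of the 4 genes was 238, 114.5 and 114.5 in Ad-Dyrk1b livers, against 332.5, 251.6 and 560.7 in Ad-EGFP livers. The groups did not overlap there either, but the highest Ad-Dyrk1b and the lowest Ad-EGFP library were close. No p is given for sums or ratios, since 3 against 3 libraries cannot reach an exact p below 0.1.

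The make-up of the family differed from library to library. Saa4 gave 48.0%, 76.7% and 70.6% of the serum amyloid counts in Ad-Dyrk1b livers, against 73.3%, 77.5% and 56.5% in Ad-EGFP livers. Shares of counts depend on transcript length. Of the summed FPKM, Saa4 gave 21.2%, 48.6% and 40.9% in Ad-Dyrk1b livers, against 43.3%, 48.9% and 26.8% in Ad-EGFP livers. Its share was smallest in each group where Saa1 and Saa2 were high. Saa3 gave 5.72% to 6.15% of the counts in Ad-Dyrk1b livers, against 13.7% to 19.9% in Ad-EGFP livers, without overlap. Its share of the summed FPKM was 10.2% to 13.6% in Ad-Dyrk1b livers, against 32.3% to 35.4% in Ad-EGFP livers. Per length, the ratio of Saa3 to Saa1 was 0.282, 0.625 and 0.438 in Ad-Dyrk1b livers, against 2.42, 3.14 and 1.85 in Ad-EGFP livers. Saa3 was thus above Saa1 in FPKM in every Ad-EGFP library and below it in every Ad-Dyrk1b library. The ratio of Saa2 to Saa1 was 0.897, 0.727 and 0.543 in Ad-Dyrk1b livers, against 0.712, 0.833 and 0.975 in Ad-EGFP livers, and overlapped. All ratios were chosen after their values were seen.

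**Figure D2:**
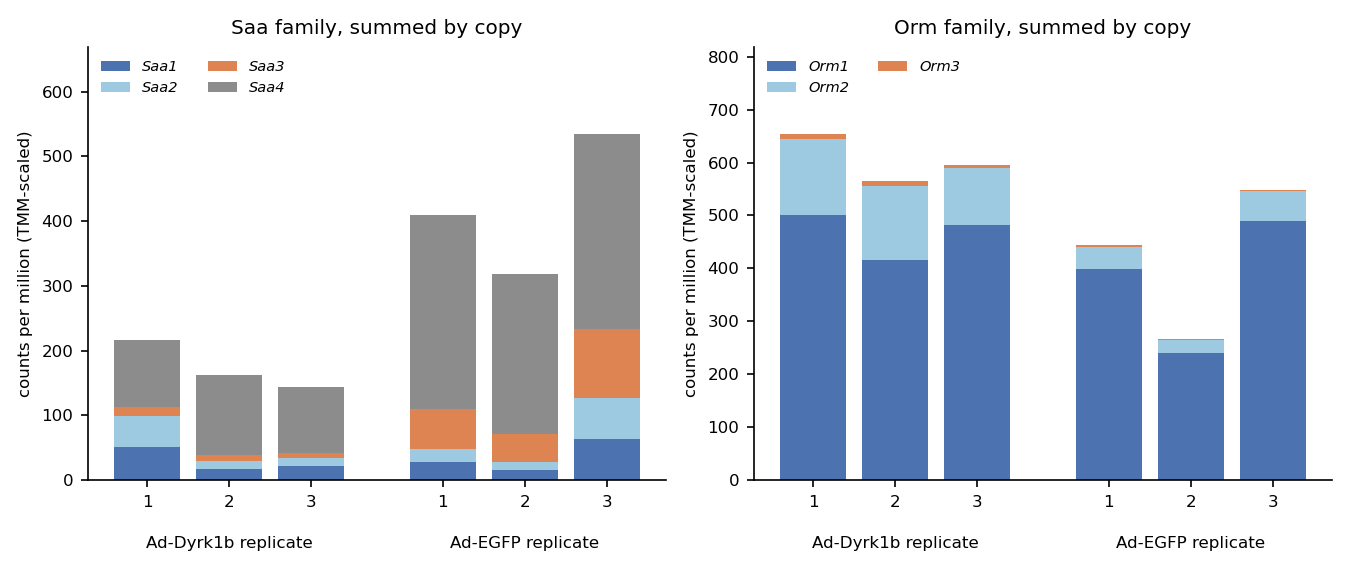
CPM, scaled by TMM factors (vertical axes, starting at 0), of the serum amyloid genes and of the orosomucoid genes, stacked by gene in each Ad-Dyrk1b and Ad-EGFP library. The serum amyloid sum is 144 to 217 CPM in Ad-Dyrk1b and 318 to 535 CPM in Ad-EGFP livers, and the orosomucoid sum is 566 to 655 CPM in Ad-Dyrk1b and 267 to 549 CPM in Ad-EGFP livers.

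The orosomucoid genes form a cluster on chromosome 4 (mm10), all on the plus strand, with Orm1 (ENSMUSG00000039196) at 63344560 to 63348163, Orm3 (ENSMUSG00000028359) at 63356162 to 63359511 and Orm2 (ENSMUSG00000061540) at 63362449 to 63365878. The upstream stretches of Orm2 and Orm3 are shown because both genes were called higher and their promoters are alike. They come from RefSeq (GRCm38.p6, plus strand, 5′ to 3′), chr4:63362199-63362448 for Orm2 and chr4:63355908-63356157 for Orm3. Capitals mark matches to the C/EBP motif, to the TATA box (TATAAA) and, in Orm2, to a 6-base part of the glucocorticoid receptor site (AGAACA).
Orm2: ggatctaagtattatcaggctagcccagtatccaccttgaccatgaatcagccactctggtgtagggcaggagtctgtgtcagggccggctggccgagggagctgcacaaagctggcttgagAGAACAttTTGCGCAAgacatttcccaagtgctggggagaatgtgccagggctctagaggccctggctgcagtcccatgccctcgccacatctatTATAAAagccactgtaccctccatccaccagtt
Orm3: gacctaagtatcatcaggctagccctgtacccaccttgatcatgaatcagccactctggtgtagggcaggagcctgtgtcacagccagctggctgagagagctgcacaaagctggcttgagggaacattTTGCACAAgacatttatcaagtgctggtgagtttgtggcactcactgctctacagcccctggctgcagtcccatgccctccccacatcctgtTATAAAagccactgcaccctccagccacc

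These 2 stretches were identical at 218 of 255 aligned positions (85.5%). The C/EBP match lay at -120 to -113 in Orm2 and at -121 to -114 in Orm3. The match to the 6-base part of the glucocorticoid receptor site in Orm2, at -128 to -123, was not found in Orm3. The TATA box lay at -33 to -28 in Orm2 and at -29 to -24 in Orm3.

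Across the 8 members matched in the promoter table (Orm1 and Hp were not matched), motifs were searched on both strands in windows of 300 bases, 250 before and 50 after the start. The C/EBP motif was in 6 of 8 members and in 10.8% of all 32851 promoters. The 6-base part of the glucocorticoid receptor site was in Orm2, Crp and Apcs and in 19.0% of all promoters. The TATA box was in Orm2, Orm3 and Crp and in 13.6%. The NF-kB motif was in Saa3 alone of the 8 members and in 5.82% of all promoters. Only the pattern GGNNTTTCC was searched for NF-kB, so sites of another length or spacing would not be counted. A STAT motif (TTCNNNGAA) was in Apcs alone, at -244 to -236, and in 8.3% of all promoters. A 6-base part of the HNF1 site (GTTAAT) was in 0 of 8 members and in 7.1% of all promoters. No matches to different motifs overlapped in the members. The C/EBP match was present in genes called higher, in genes called lower and in genes not called.

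Orm2 and Orm3 were higher in Ad-Dyrk1b livers, while Orm1, the most abundant orosomucoid, was not called. Orm2 had 189.8, 168 and 133 FPKM in Ad-Dyrk1b livers, against 53.5, 33.0 and 76.0 FPKM in Ad-EGFP livers. The groups did not overlap. Its log2 fold change was 1.68 ± 0.30 (SE), a 3.20-fold difference, with an adjusted p of 0.0180 in edgeR. This call was lost in edgeR with no filter on low counts (adjusted p of 0.0551). It was also lost without Ad-Dyrk1b replicate 1 (log2 fold change 1.60, adjusted p 0.0695), Ad-Dyrk1b replicate 2 (1.62, 0.0705) or Ad-EGFP replicate 1 (1.69, 0.0971). With 1 library left out the log2 fold change never fell below 1.41.

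Orm3, at a lower level, had 12.6, 12.7 and 8.61 FPKM in Ad-Dyrk1b livers, from 186, 196 and 119 counts. In Ad-EGFP livers it had 5.19, 2.81 and 3.88 FPKM, from 72, 38 and 52 counts. The groups did not overlap. The means were 11.3 ± 2.32 and 3.96 ± 1.19 FPKM (SD, n = 3 each). Orm3 rose by 1.59 ± 0.26 (SE) on the log2 scale in edgeR, a 3.01-fold difference with an adjusted p of 0.00196, and the call held without any single library. Orm1 had 658, 500.4 and 599 FPKM in Ad-Dyrk1b livers, against 517, 324 and 655 FPKM in Ad-EGFP livers. These groups overlapped, and its log2 fold change was 0.31 ± 0.23 (SE) with an adjusted p of 0.423 in edgeR, and 0.07 to 0.54 with 1 library left out.

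The orosomucoid sum was 655, 566 and 596 CPM in Ad-Dyrk1b livers, against 444, 267 and 549 CPM in Ad-EGFP livers. The groups did not overlap on this scale, but the lowest Ad-Dyrk1b and the highest Ad-EGFP library were close. Summed as FPKM, the groups overlapped, at 860, 681 and 740 in Ad-Dyrk1b livers, against 576, 360.0 and 735 in Ad-EGFP livers. The ratio of the means was 1.44, a log2 ratio of 0.53, which ran from 0.29 to 0.77 with 1 library left out. The share of Orm2 in the family's counts was 22.1%, 24.7% and 17.9% in Ad-Dyrk1b livers, against 9.28%, 9.16% and 10.3% in Ad-EGFP livers. Per length, the ratio of Orm2 to Orm1 was 0.289, 0.336 and 0.221 in Ad-Dyrk1b livers, against 0.103, 0.102 and 0.116 in Ad-EGFP livers. The make-up of the family thus differed between the groups in every library, and the Ad-EGFP ratios lay closer together than the levels of either gene. The ratio of Orm3 to Orm1 did not overlap either, with 0.0191, 0.0253 and 0.0144 in Ad-Dyrk1b livers and 0.0100, 0.00867 and 0.00592 in Ad-EGFP livers. Orm1 and Orm2 share 20.4% of the 50-base windows and 6.95% of the 100-base windows of their transcripts, so the split of reads between them is uncertain. Orm3 shares 3.59% of its 50-base windows and no 100-base window.

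**Figure D3:**
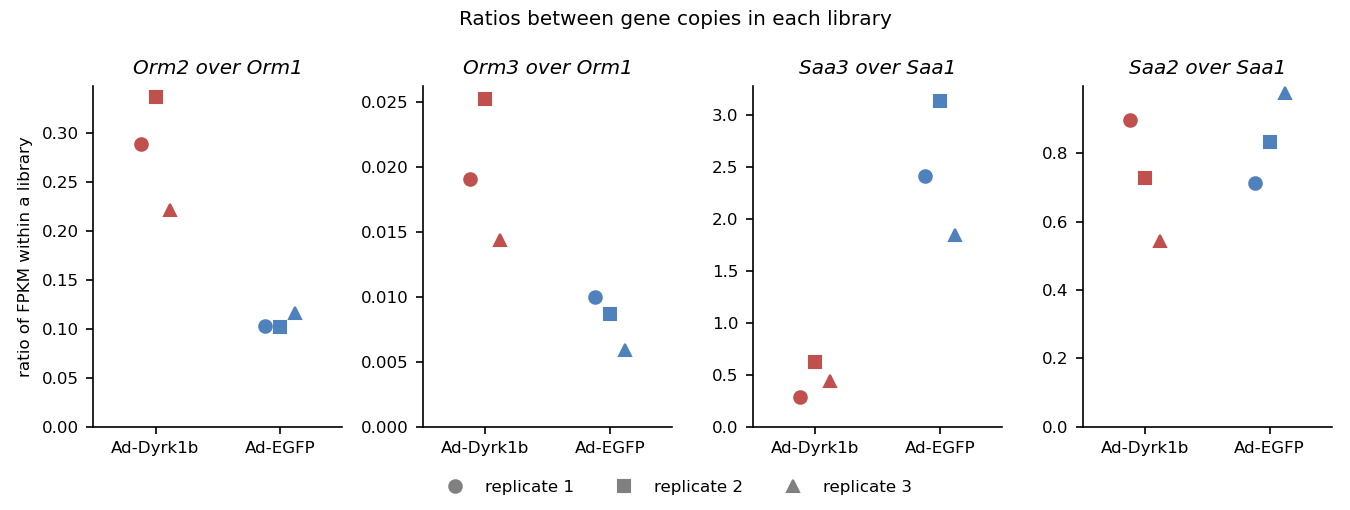
Ratios of FPKM between gene copies within each library (vertical axes, starting at 0), in the 3 Ad-Dyrk1b and 3 Ad-EGFP livers. Orm2 over Orm1 is 0.221 to 0.336 in Ad-Dyrk1b and 0.102 to 0.116 in Ad-EGFP livers, Saa3 over Saa1 is 0.282 to 0.625 in Ad-Dyrk1b and 1.85 to 3.14 in Ad-EGFP livers, and Saa2 over Saa1 overlaps.

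The pentraxin genes lie on chromosome 1 (mm10), with Crp (ENSMUSG00000037942) at 172698055 to 172833031 on the plus strand and Apcs (ENSMUSG00000026542) at 172893961 to 172895041 on the minus strand. Crp, the pattern-recognition protein that is a minor acute-phase reactant in mice, had 78.8, 97.6 and 101 FPKM in Ad-Dyrk1b livers, against 61.1, 57.4 and 66.8 FPKM in Ad-EGFP livers. The groups did not overlap. The means were 92.4 ± 11.9 and 61.7 ± 4.74 FPKM (SD, n = 3 each). Crp rose by 0.67 ± 0.13 (SE) on the log2 scale in edgeR, a 1.59-fold difference with an adjusted p of 0.00565. Without any single library it was still called, with log2 fold changes of 0.60 to 0.80. The annotated span of Crp holds a processed pseudogene on the same strand, Gm38051.

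Apcs, which was not called, varied more between libraries than Crp. It had 107, 96.4 and 176 FPKM in Ad-Dyrk1b livers, against 76.9, 70.0 and 106 FPKM in Ad-EGFP livers. Ad-Dyrk1b replicate 3 and Ad-EGFP replicate 3 were the high libraries of their groups, and the groups overlapped in FPKM. On the TMM-scaled CPM scale they did not overlap, at 100.3 to 178 in Ad-Dyrk1b and 65.1 to 98.8 in Ad-EGFP livers. The log2 fold change was 0.67 ± 0.26 (SE), or 1.59-fold, with an adjusted p of 0.147 in edgeR. It ran from 0.35 to 0.86 with 1 library left out, and the lowest value was that without Ad-Dyrk1b replicate 3, where Crp stood at 0.60. The ratio of Crp to Apcs within a library was 0.740, 1.01 and 0.571 in Ad-Dyrk1b livers, against 0.795, 0.820 and 0.631 in Ad-EGFP livers, and overlapped. A call for Crp and none for Apcs is therefore not a difference between the pentraxins, which was not tested.

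Hp (ENSMUSG00000031722, chromosome 8, 109575128 to 109579172, minus strand, mm10) was by far the most abundant of the 10 genes. It had 4049, 3548 and 4468 FPKM in Ad-Dyrk1b livers, against 4178, 3802 and 4971 FPKM in Ad-EGFP livers. The groups overlapped, and the log2 fold change was -0.02 ± 0.14 (SE) with an adjusted p of 0.946 in edgeR. With 1 library left out it ran from -0.11 to 0.09. Erythroid transcripts are given beside Hp because haptoglobin binds haemoglobin. The 7 erythroid markers, none of them at 0, summed to 872, 1121 and 3846 CPM in Ad-Dyrk1b livers, against 527, 687 and 843 CPM in Ad-EGFP livers without overlap. The globin gene Hbb-bs, named after its values were seen, was not called (1.49 ± 0.67, adjusted p of 0.235 in edgeR), and its log2 fold change was 0.58 when Ad-Dyrk1b replicate 3 was left out. Hp was highest within each group in replicate 3, as the erythroid sum was. Within each group Hp was lowest in replicate 2, but the erythroid sum was lowest in replicate 1. Of the replicates 3, the Ad-EGFP library had the higher Hp and the Ad-Dyrk1b library the higher erythroid sum. A relation between Hp and erythroid transcripts was not tested.

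In FPKM, the order of the means in Ad-Dyrk1b livers was Hp, Orm1, Orm2, Apcs, Crp, Saa4, Saa1, Saa2, Saa3 and Orm3. In Ad-EGFP livers it was Hp, Orm1, Saa4, Saa3, Apcs, Crp, Saa1, Orm2, Saa2 and Orm3. Hp, Orm1 and Orm3 kept their places at the ends of the order. Saa3 and Saa4 stood behind both pentraxins in Ad-Dyrk1b livers and ahead of both in Ad-EGFP livers, and Orm2 stood ahead of both pentraxins in Ad-Dyrk1b livers only. In Ad-Dyrk1b livers the means ± SD (n = 3) of neighbours overlapped from Orm2 (164 ± 29.0) to Apcs (126 ± 43.6) and Crp (92.4 ± 11.9), from Saa4 (51.0 ± 4.46) to Saa1 (48.4 ± 32.9), Saa2 (38.0 ± 33.9) and Saa3 (18.3 ± 5.198), and between Saa3 and Orm3 (11.3 ± 2.32). In Ad-EGFP livers they overlapped for every pair of neighbours from Saa4 (139 ± 14.2) through Saa3 (130.0 ± 61.0), Apcs (84.2 ± 19.0), Crp (61.7 ± 4.74), Saa1 (59.6 ± 42.6) and Orm2 (54.2 ± 21.5) to Saa2 (52.9 ± 45.2). Hp and Orm1 stood apart from all others in both groups. Counts of all 10 genes together, most of them from Hp, summed to 6455, 6119 and 7341 CPM in Ad-Dyrk1b livers, against 6623, 5640 and 7728 CPM in Ad-EGFP livers.

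**Figure D4:**
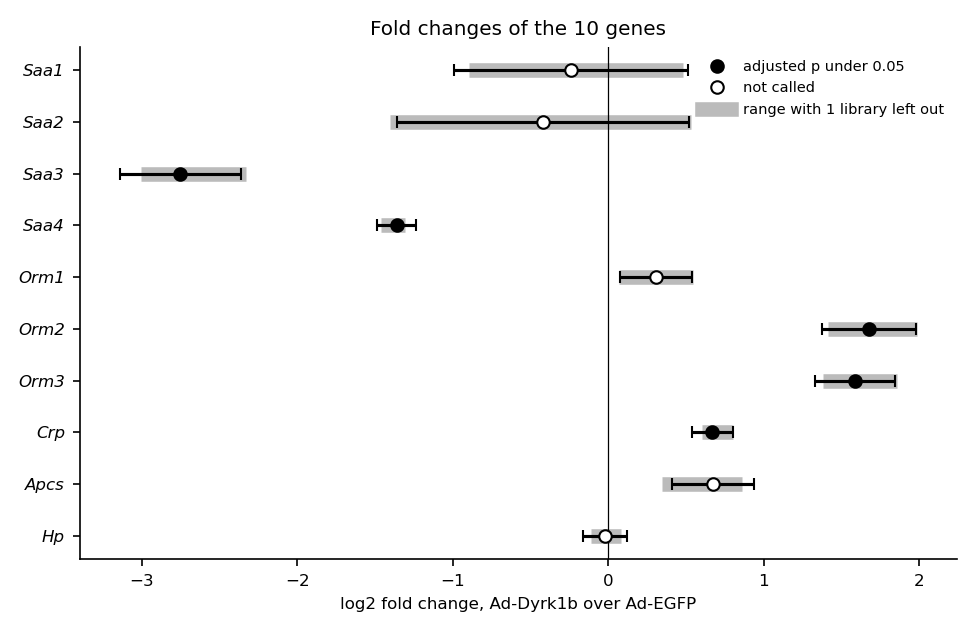
Log2 fold changes of the 10 genes, Ad-Dyrk1b over Ad-EGFP (horizontal axis), with the SE as whiskers and the range with 1 library left out as a grey band. Orm2, Orm3 and Crp lie to the right of 0, Saa3 and Saa4 to the left, and the bands of Saa1, Saa2 and Hp cross 0.

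The authors' deposited table gives the same directions. In the authors' deposited table Saa3 has a log2 ratio of -2.83 (adjusted p of 1.74e-08), Saa4 of -1.45 (2.54e-22) and Crp of 0.58 (7.19e-05). In the authors' deposited table Orm2 stands at 1.59 with an adjusted p of 9.38e-05 and Orm3 at 1.51 with an adjusted p of 1.09e-06. The other 5 genes have adjusted p of 0.239 to 0.968 in the authors' deposited table. These p-values are from the same 6 libraries as the edgeR test.

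The profile over the 6 libraries was compared with that of 11293 tested genes of 1 FPKM or more, by the root mean square difference of centred log2 CPM, with smaller values for more similar profiles. Saa1 was closest to Saa2 (0.274), followed by Gm20390 (0.431) and Gm16867 (0.479). Saa3 was closest to Fndc10 (0.527), Ak1 (0.537) and Psrc1 (0.566). Orm1 was closest to Rundc3a (0.0591), Sec61g (0.0957) and Atp5k (0.110), and Apcs to Serpina11 (0.102), BC028528 (0.107) and Adgb (0.111). Hp was closest to Gm20605 (0.0398), 5730480H06Rik (0.0428) and Hpx (0.0447), the gene of the haem-binding protein haemopexin. The distances of Saa1 and Saa3 are larger than those of Hp and Orm1, and no gene compared followed Saa3 as closely as Saa2 followed Saa1. The measure is not scaled for how much a gene varies, so genes that vary widely tend to have larger distances. Reads that match both Saa1 and Saa2 could add to their closeness, which was not tested.

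Of 26 other positive acute-phase genes, all tested, 2 were called higher and 2 lower, beside 7.36% and 4.81% of all tested genes, with a median log2 fold change of 0.01. DESeq2 called 4 higher and 3 lower in this list, and limma-trend with either pseudocount called 1 higher and 4 lower, with medians of -0.07. Mbl1, a mannose-binding lectin, rose by 1.08 ± 0.12 (SE) with an adjusted p of 0.000114 in edgeR. Steap4, a metalloreductase, fell by 0.55 ± 0.12 (adjusted p of 0.0107, edgeR). Both calls held without any single library. The second lectin gene, Mbl2, was called lower (-0.54 ± 0.14, adjusted p of 0.0258) and Serping1, the complement inhibitor, higher (0.47 ± 0.12, 0.0277), both in edgeR. Mbl2 was not called in edgeR without replicate 1 or 3 of either group (adjusted p of 0.0584 to 0.117). Serping1 was called only with all libraries or without Ad-Dyrk1b replicate 1, and the other fits without 1 library gave adjusted p of 0.0653 to 0.101 in edgeR. The log2 fold changes of Lcn2 (-0.06 ± 0.17), Hpx (-0.05 ± 0.14) and Serpina3n (0.32 ± 0.12), all inducible acute-phase genes, were not called, with adjusted p of 0.838, 0.854 and 0.109 in edgeR.

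Negative acute-phase proteins, which fall in an acute-phase response, had 4 of 12 genes called higher and 0 lower, beside 7.36% and 4.81% of all tested genes, with a median of 0.02. Limma-trend called 2 higher and 0 lower, with a median of -0.07. Serpina6, the carrier of corticosteroids, rose by 1.46 ± 0.22 (SE, adjusted p of 0.00534) and Itih1, whose product binds hyaluronan, by 0.70 ± 0.11 (0.00159) in edgeR, and both calls held without any single library. Fetub (0.59 ± 0.15, adjusted p of 0.0261) and the transferrin gene Trf (0.55 ± 0.15, 0.0338) were called higher in edgeR. Fetub lost its call without Ad-Dyrk1b replicate 3 (0.0689) and without each Ad-EGFP library in turn (0.0525 to 0.0831), adjusted p from edgeR. Trf lost it without each library but Ad-Dyrk1b replicate 1 (adjusted p of 0.0710 to 0.131, edgeR). The albumin gene Alb had a log2 fold change of -0.10 ± 0.15 and Apoa1, the main protein of high-density lipoprotein, of 0.00499 ± 0.14, with adjusted p of 0.703 and 0.986 in edgeR.

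Among 19 cytokine and receptor genes upstream of the response, 17 were tested, 4 called higher and 1 lower, beside 7.36% and 4.81% of all tested genes, with a median of 0.19. Limma-trend called 2 higher and 1 lower. Lepr, the leptin receptor, rose by 2.36 ± 0.15 (SE, adjusted p of 3.02e-06), and Il1r1, the interleukin-1 receptor, by 0.50 ± 0.10 (0.00816) in edgeR. Both calls held without any single library, although limma-trend on log2(FPKM + 1) gave Il1r1 an adjusted p of 0.0557. The receptor gene Lifr was also higher (0.57 ± 0.13, adjusted p of 0.0131 in edgeR), with an adjusted p of 0.0508 without Ad-Dyrk1b replicate 1. Il1rap was higher (0.45 ± 0.14, 0.0499) and Lif, a cytokine of the interleukin-6 family, lower (-0.96 ± 0.26, 0.0291) in edgeR. Il1rap was not called without replicate 2 or 3 of either group (adjusted p of 0.118 to 0.158, edgeR), and Lif was not called without any 1 of the 6 libraries (0.0509 to 0.0848). The interleukin-6 receptor genes Il6ra (-0.32 ± 0.13, adjusted p of 0.127) and Il6st (0.09 ± 0.11, 0.642) were not called in edgeR. Il6 itself was too low to be tested, at 0.230, 0.180 and 0.120 FPKM in Ad-Dyrk1b livers and 0.0200, 0.120 and 0.120 FPKM in Ad-EGFP livers.

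Of 21 genes for STAT3, NF-kB and C/EBP factors and their feedback regulators, 0 were called by edgeR, by DESeq2 and by limma-trend, beside 12.2% of all tested genes in edgeR, with a median of -0.10. At an unadjusted p under 0.05 in edgeR, 0 were higher and 4 lower, beside 1970 higher and 1787 lower of all 13201 tested genes, and without Ad-EGFP replicate 1 there was 1 call, lower. Stat3 had a log2 fold change of -0.21 ± 0.10 (SE, adjusted p of 0.199 in edgeR) and its feedback inhibitor Socs3 of -0.37 ± 0.22 (0.297). Cebpb stood at -0.12 ± 0.10 (0.478), Cebpd at 0.10 ± 0.12 (0.631) and the NF-kB inhibitor gene Nfkbia at -0.27 ± 0.10 (0.108), with adjusted p from edgeR in parentheses.

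Of 10 glucocorticoid genes, 1 was called higher and 3 lower, beside 7.36% and 4.81% of all tested genes, with a median of -0.15. Hsd11b1, whose enzyme regenerates active glucocorticoid in liver, rose by 1.57 ± 0.15 (SE, adjusted p of 3.81e-05, edgeR), with 259, 285 and 337 FPKM in Ad-Dyrk1b livers and 119, 94.6 and 99.8 FPKM in Ad-EGFP livers. Errfi1 (-0.50 ± 0.11, adjusted p of 0.0138), Per1 (-0.42 ± 0.12, 0.0384) and Zbtb16 (-0.58 ± 0.17, 0.0458), genes that glucocorticoids induce, were called lower in edgeR. Without Ad-EGFP replicate 1 none of these 3 was called (adjusted p of 0.0596, 0.166 and 0.0978). Per1 also lost its call without replicate 1 or 2 of Ad-Dyrk1b (0.108 and 0.113). Zbtb16 lost its call without replicate 1 or 3 of Ad-Dyrk1b (0.137 and 0.117) and without replicate 2 of Ad-EGFP (0.132). The receptor gene Nr3c1 stood at -0.15 ± 0.13 with an adjusted p of 0.466 in edgeR.

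Of 19 genes for partners and receptors of these proteins, 16 were tested, and 3 were called higher and 0 lower, beside 7.36% and 4.81% of all tested genes, with a median of 0.33. DESeq2 called 5 and limma-trend 1 of them higher, and both called 0 lower. Fcgr1, an Fc receptor, rose by 0.72 ± 0.15 (SE, adjusted p of 0.00850, edgeR), and the call held without any single library. Scarb1, which binds high-density lipoprotein and serum amyloid A, was higher by 0.43 ± 0.11 (0.0232) and Fcgr2b, another Fc receptor, by 0.39 ± 0.11 (0.0405), with adjusted p from edgeR. Scarb1 was not called in edgeR without Ad-Dyrk1b replicate 2 (adjusted p of 0.0585), Ad-Dyrk1b replicate 3 (0.0680) or Ad-EGFP replicate 1 (0.104). Fcgr2b was not called without replicate 1 or 3 of either group (adjusted p of 0.0906 to 0.144, edgeR). Cd163, the macrophage receptor for complexes of haptoglobin and haemoglobin, was at 0.19 ± 0.29 and not called (adjusted p of 0.711, edgeR). Of the 20 genes called over all 6 lists, 8 were still called without any single library.

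**Figure D5:**
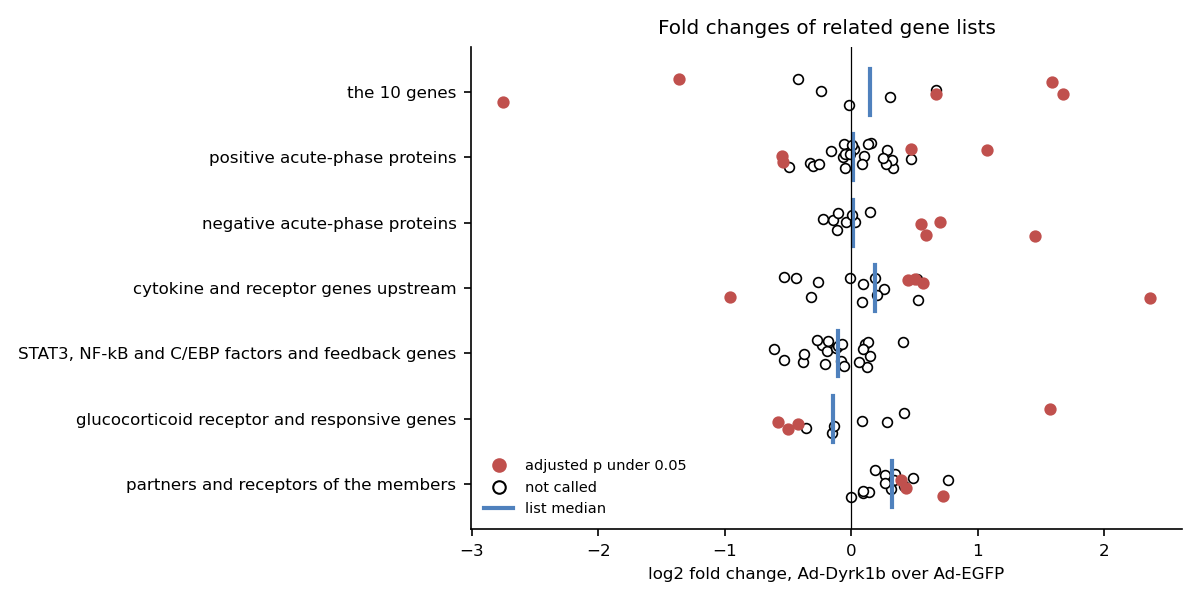
Log2 fold changes, Ad-Dyrk1b over Ad-EGFP (horizontal axis), of the 10 genes and of 6 related gene lists, with filled points for genes called in edgeR and a bar for each list's median. The list medians run from -0.15 to 0.33, and Saa3 at -2.75 and Lepr at 2.36 lie farthest from 0.

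Marker sums of 2 further cell types did not overlap between the groups. The 10 T and NK cell markers summed to 38.3 to 50.6 CPM in Ad-Dyrk1b and 22.9 to 31.4 CPM in Ad-EGFP livers, and the 6 cholangiocyte markers to 330.2 to 426 CPM in Ad-Dyrk1b and 199.7 to 237 CPM in Ad-EGFP livers. No marker of either list was at 0 in any library. Among the T and NK markers 1 of 9 tested was called, and among the cholangiocyte markers 1 of 6, beside 12.2% of all tested genes. Nearly all of the cholangiocyte sum was Spp1, which other cell types also express, at 406, 403 and 312 CPM in Ad-Dyrk1b livers and 186, 223 and 214 CPM in Ad-EGFP livers, and Spp1 was the gene called. Epcam stood at a log2 fold change of -0.14 ± 0.24, and Krt7, Krt19, Cftr and Sox9 were not called either. Spp1 and Epcam were named after their values were seen. The monocyte and neutrophil markers overlapped, at 117 to 189.7 CPM in Ad-Dyrk1b and 129 to 221 CPM in Ad-EGFP livers. The part of these cells in the levels of the 10 genes was not tested.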

How the data were processed

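RNA of 6 mouse liver samples was measured by mRNA sequencing (NEBNext Ultra library kit, Illumina NovaSeq, per the labels' protocols). The deposited table held unnormalized counts per gene and FPKM values made by the authors, per the file headers. It also held the authors' log2 ratios, p-values and adjusted p-values, which were copied and not recomputed. The submitters' processing notes name mm10 as the build and DESeq2 as a tool. The aligner, the counting tool and the strand setting, not given in the sources used here, could change single values. Groups came from the treatment label.

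Counts were tested with edgeR 4.0.16 (R 4.3.3) over all genes: TMM scaling, filterByExpr (minimum count 10, minimum total 15), robust quasi-likelihood fit, two-sided F-test, and Benjamini-Hochberg adjustment over 13201 genes, after the code had been tested on simulated data. Of 22274 genes, 5089 had no count. An SE is the size of the log2 fold change divided by the square root of F. Sums and CPM use TMM-scaled library sizes. FPKM served for levels, since it allows comparison between genes of different length. In a library, 3 counts equal 0.154 to 0.174 CPM, which covers counting error only, as PCR copies are not independent molecules. Alternatives were DESeq2 1.42.0, its size factors in edgeR, no filter, limma-trend (3.58.1) on log2(FPKM + 1) and log2(FPKM + 0.1), a replicate block and leaving out each library.

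The 10 genes, the gene lists and the tests were chosen with earlier results of these data known. The rule for named genes took Dyrk1b, the 10 genes, up to 6 called genes per list by smallest p, 15 genes by name and the 3 closest profiles of 5 genes. Coordinates and transcript windows came from GENCODE M21 (mm10), and upstream sequences from RefSeq (GRCm38.p6). Counts of Dyrk1b do not separate viral from mouse transcripts.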

Additional observations from a re-analysis of the deposited data

How the results depend on the processing

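Saa4, Orm3 and Crp kept their direction and their call under all alternatives run. Saa3 kept its direction, with log2 fold changes of -3.004 to -2.33 when 1 library was left out, and lost its call without Ad-Dyrk1b replicate 2 (-2.67). Orm2 kept its direction at 1.41 to 1.99 and lost its call without each of 3 libraries in turn, and also with no low-count filter (1.67). The sums kept their direction, except that the sum of Saa1 and Saa2 ran from -1.12 to 0.50 with 1 library left out. Directions that turned were those of genes near 0 or with wide spread: with 1 library left out, Saa1 ran from -0.89 to 0.48, Saa2 from -1.40 to 0.54 and Hp from -0.11 to 0.086. The same fits gave Marco -1.54 to 0.77, Sec61g -0.040 to 0.36, Alb -0.20 to 0.012, Lcn2 -0.24 to 0.12, Hpx -0.15 to 0.059, Gm16867 -0.20 to 0.30, 5730480H06Rik -0.15 to 0.090, Gm20605 -0.14 to 0.11, Gm20390 -0.32 to 0.48 and Apoa1 -0.11 to 0.066. Limma-trend turned Gm16867 (-0.0098 with a pseudocount of 1 and -0.0167 with 0.1) and Apoa1 (-0.0812 with both), and with a pseudocount of 1 it did not call Trf, Fetub, Serping1, Scarb1, Il1r1, Il1rap, Fcgr2b or Zbtb16. Over all genes, calls higher numbered 566 and 569 in limma-trend with pseudocounts of 1 and 0.1, calls lower 712 and 725, and leaving out 1 library gave 612 to 800 higher and 294 to 461 lower, where fewer samples were tested. The cause of the other shifts was not tested.

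Deviations from the group means correlated at r = 0.0245, 0.172 and 0.108, across genes, between libraries with the same replicate number. Ad-Dyrk1b replicate 1 correlated better with Ad-EGFP replicate 3 (r = 0.0845), while every other library correlated best with its own number. Whether the numbers pair the samples cannot be told from these small correlations. With the replicate block edgeR called 1109 genes higher and 774 lower. Apcs was then called at a log2 fold change of 0.64 (adjusted p of 0.00454) and Gm20390 turned to 0.068, while the calls of the other 9 genes did not change, and Il1rap and Fcgr2b were not called.

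Counts limit Orm3 most among the 10 genes, at 38 to 196 counts per library, and 3 libraries a group limit the sums and ratios, which have no test. Reads shared by Saa1 with Saa2 and by Orm1 with Orm2 limit what their single values mean.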
